A study of Mus musculus with 13 samples.

Results

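The 9 genes described here, Hoxa2, Hoxa3, Hoxa4, Hoxa5, Hoxa6, Hoxa7, Hoxa9, Hoxa10 and Hoxa11, are members of the HoxA cluster on mouse chromosome 6. They were chosen by name, before any filter on level, from the 41388 genes in the count tables, and all 9 were found there by Ensembl identifier. Of these, 6 passed a filter on low counts that left 15406 genes for testing, and Hoxa2, Hoxa6 and Hoxa11 did not. RNA was sequenced in bulk from cells sorted by fluorescence out of dorsal root ganglia (DRG), the ganglia that hold the cell bodies of spinal sensory neurons, of adult C57BL/6 mice at 3 months of age. Each library holds ganglia of the 6th lumbar and 1st sacral level (L6S1), which carry sensory neurons of the pelvic organs, or of L3, L4 and L5 (L345), which mainly serve the hindlimb. There were 4 libraries from male L6S1 (replicates A, D, E and F), 3 from male L345, 3 from female L6S1 and 3 from female L345 (A, B and C in each).

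All mice of all groups carried enhanced green fluorescent protein (EGFP) under the control of Ret, the receptor tyrosine kinase for GDNF family ligands. The series text describes a knock-in at Ret in heterozygotes, whereas the genotype label reads Tg(Ret-EGFP)SJ, and which of the 2 descriptions holds was not tested. The reporter marks Ret-expressing cells, so the values describe the sorted cells and not the whole ganglion. Markers of other cell types were also measured in the sorted pools, as given below, and the purity of the pools was not tested. Tissue of 2 to 9 mice was pooled per library. The pools add up to 61 mice, and the labels do not say whether a mouse was used for both levels. In bulk RNA, fewer cells that express a gene and less of its RNA per cell cannot be told apart.

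Hox genes encode homeodomain transcription factors that give cells of the embryo their position along the head-to-tail axis. Within each of the mammalian clusters, genes at one end (low group numbers) are switched on early and toward the head, and genes at the other end later and toward the tail. Genes with the same group number in the HoxA, HoxB, HoxC and HoxD clusters are paralogues, descended from one ancestral gene. Neurons keep part of this code into adult life. Hoxa2 and Hoxa3 are best known for patterning the hindbrain and the pharyngeal arches, Hoxa4 to Hoxa7 for neck and thoracic identity, Hoxa9 and Hoxa10 for the lumbar region and the limb, and Hoxa11 for the forearm, lower leg and uterus.

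The 9 genes lie in order along the minus strand of chromosome 6 (GRCm38), with Hoxa2 at chr6:52162511-52164831 and Hoxa11 at chr6:52242106-52245810. Between them are Hoxa3 (chr6:52169062-52213336), Hoxa4 (chr6:52189671-52191753), Hoxa5 (chr6:52201754-52204587), Hoxa6 (chr6:52206288-52208722), Hoxa7 (chr6:52214491-52221854), Hoxa9 (chr6:52223100-52231089) and Hoxa10 (chr6:52231197-52240854). The annotated exons of Hoxa5, Hoxa6 and Hoxa10 overlap no other gene. Antisense exons cover 35.0% of the exon length of Hoxa11, 25.4% of Hoxa3, 16.0% of Hoxa4 and 15.6% of Hoxa7. The use of strand in counting is not given in the sources used here, so reads from those stretches cannot be assigned to one strand. Hoxa2 and Hoxa3 also share 15.9% and 8.01% of their exon length with a transcript on their own strand that was listed with 0 counts.

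The boundary between the expressed and the nearly silent end of the cluster lies between Hoxa10 and Hoxa11 in these cells. The 250 bases before the annotated start of the 3 most abundant members and of Hoxa11 are shown for that reason, 5′ to 3′ on the minus strand, from RefSeq on GRCm38.p6. Capitals mark TTTATG, a sequence bound by CDX and posterior Hox proteins, searched on both strands. The windows are chr6:52218574-52218823 for Hoxa7, chr6:52227371-52227620 for Hoxa9, chr6:52240855-52241104 for Hoxa10 and chr6:52245811-52246060 for Hoxa11. The RefSeq starts of Hoxa7 and Hoxa9 lie inside the gene spans given above, which the counts use. The windows of Hoxa7 and Hoxa9 therefore lie within those spans and not before them.
Hoxa7: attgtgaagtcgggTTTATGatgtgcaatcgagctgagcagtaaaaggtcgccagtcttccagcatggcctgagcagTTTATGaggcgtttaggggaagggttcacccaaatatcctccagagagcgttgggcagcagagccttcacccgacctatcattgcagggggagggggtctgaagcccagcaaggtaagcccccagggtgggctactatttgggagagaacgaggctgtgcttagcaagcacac
Hoxa9: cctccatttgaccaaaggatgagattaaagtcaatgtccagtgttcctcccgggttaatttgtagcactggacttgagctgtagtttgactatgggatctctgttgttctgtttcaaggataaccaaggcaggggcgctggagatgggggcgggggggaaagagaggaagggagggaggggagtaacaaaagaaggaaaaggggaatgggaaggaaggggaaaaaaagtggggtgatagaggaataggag
Hoxa10: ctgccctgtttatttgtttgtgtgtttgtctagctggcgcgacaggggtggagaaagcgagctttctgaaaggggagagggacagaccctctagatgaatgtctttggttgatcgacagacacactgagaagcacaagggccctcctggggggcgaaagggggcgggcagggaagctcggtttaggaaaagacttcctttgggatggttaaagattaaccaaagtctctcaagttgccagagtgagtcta
Hoxa11: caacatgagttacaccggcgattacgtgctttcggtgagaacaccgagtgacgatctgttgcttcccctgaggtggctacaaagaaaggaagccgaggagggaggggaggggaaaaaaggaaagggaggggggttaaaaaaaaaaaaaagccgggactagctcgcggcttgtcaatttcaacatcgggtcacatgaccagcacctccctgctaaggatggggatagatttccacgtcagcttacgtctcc

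RefSeq gave such a window for 8 of the 9 genes, 9 windows in all because Hoxa10 has 2 annotated starts, and Hoxa4 had no entry. Among these windows TTTATG was found in that of Hoxa7, with 2 matches that begin 236 and 173 bases before the start, and it was present in 10.8% of the 32851 windows of all genes. TGATTNAT, a Pbx and Hox composite site, was found before Hoxa2 and in 2.82% of all windows. TGACAG, bound by Meis proteins, was found before Hoxa2 and Hoxa3 and in 15.9% of all windows. AGGTCA, the half-site of retinoic acid receptors, was in 14.0% of all windows and in none of the members' windows. TATAAA was in 12.4% of all windows and, among the members, 160 bases before the second start of Hoxa10. The GC content of the members' windows was 46.4% to 65.2%, beside a median of 52.4% over all windows. A match to these letters is a description and not a binding site.

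The cells carried RNA of the central part of the cluster, while both ends were near the limit of detection. Levels are compared between genes in RPKM, the CPM (reads of a gene scaled to a common library total, here with the TMM factor of each library) per kilobase of exon. Hoxa10 was the most abundant at 16.9 ± 2.09 RPKM (SD, n = 13), followed by Hoxa7 at 10.4 ± 2.78 RPKM and Hoxa9 at 7.77 ± 1.25 RPKM. Hoxa5 followed at 1.81 ± 0.553 RPKM, Hoxa4 at 0.550 ± 0.235 RPKM and Hoxa6 at 0.404 ± 0.180 RPKM (SD, n = 13 each). Hoxa2 lay at 0.0698 ± 0.0485 RPKM, Hoxa3 at 0.0523 ± 0.0329 RPKM and Hoxa11 at 0.00882 ± 0.0122 RPKM. The order therefore does not follow position: Hoxa6 lies between Hoxa5 and Hoxa7 on the chromosome and was expressed below both.

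Some neighbours in this order were separated by more than their spread and some were not. The ranges over 13 libraries did not overlap between Hoxa9 and Hoxa5, between Hoxa5 and Hoxa4, or between Hoxa6 and Hoxa2. Hoxa10 was above Hoxa7 in 12 of 13 libraries, the exception being male L6S1 D, with 17.2 RPKM for Hoxa7 and 14.6 RPKM for Hoxa10. Hoxa7 was above Hoxa9 in 13 of 13 libraries although their ranges overlapped. Hoxa4 was above Hoxa6, and Hoxa2 above Hoxa3, in 9 of 13 libraries each, so these neighbours were not ordered beyond their spread. Together Hoxa7, Hoxa9 and Hoxa10 held 96.4% to 97.8% of the members' summed CPM in L6S1 libraries and 95.5% to 96.3% in L345 libraries.

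**Figure D1:**
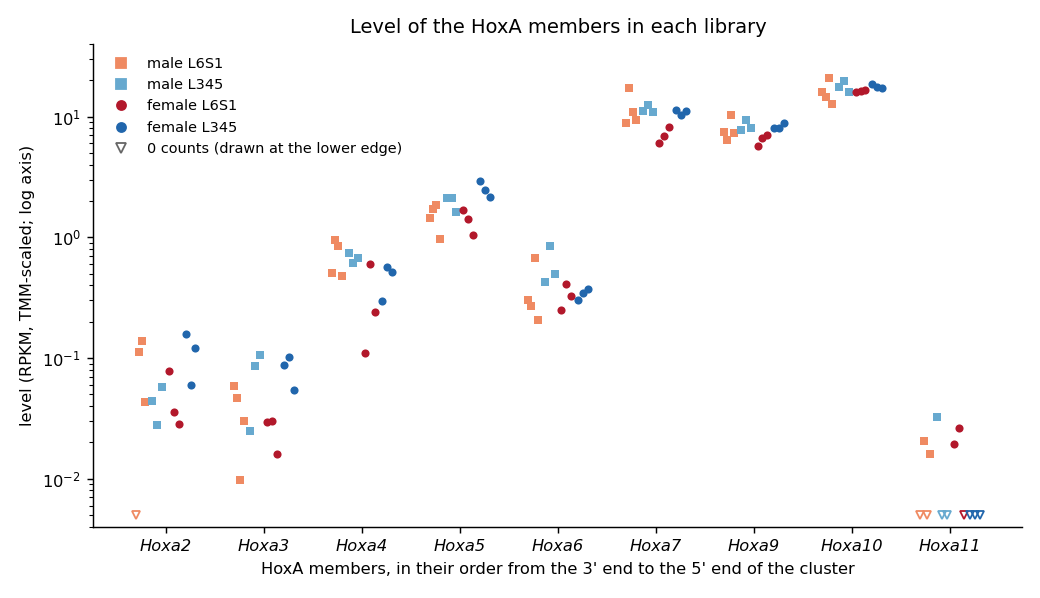
Level per length of the 9 HoxA genes in RPKM (log axis), in their order along the chromosome, with 1 point per library, L6S1 left of L345 within each sex and triangles at the lower edge for 0 counts. Hoxa7, Hoxa9 and Hoxa10 lie above the other members in all 13 libraries, and Hoxa11 is at 0 in 8 of 13.

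The libraries held 13030096 to 27011995 counted reads each, so that 3 counts correspond to 0.109 to 0.223 CPM, and counting error is the only error such a floor covers. Along the first principal component, male L6S1 D and E lay 4.84 and 7.38 SDs from the mean of the other 11 libraries. Their TMM factors were 0.925 and 0.796, against 1.01 to 1.05 elsewhere. Ret itself ranged from 87.2 CPM in male L6S1 E to 221 CPM in male L6S1 F, and the summed CPM of 9 sensory neuron markers was 7130 to 13895 in all libraries. The summed CPM of 10 glial markers was 5914 in E, 1887 in D and 853 to 1840 in the others, and that of 10 fibroblast markers was 655, 348 and 104 to 460. Immune markers (10 genes) summed to 36.5 CPM in E, 26.1 in D and 7.93 to 17.6 in the others. In autonomic or motor neuron markers (8 genes) no library exceeded 1.06 CPM in sum, with Mnx1 at 0. The 8 muscle markers summed to 17.2 CPM in D, 15.7 in E and 3.75 to 7.14 in the others, with Myod1 at 0. The part of other cell types in the results was not tested, and the values that leaving out D and E moves are given beside the results. Male L6S1 E and F were deposited apart from A and D, and males apart from females, so sex and deposit cannot be told apart.

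Between spinal levels, no HoxA member passed the test, which does not show that the levels were equal. The averaged fold of L6S1 over L345 was 0.909 for Hoxa10, 0.852 for Hoxa9 and 0.807 for Hoxa7. The confidence intervals of these folds ran from 0.713 to 1.16, from 0.667 to 1.09 and from 0.613 to 1.06. For Hoxa7 the fold was 0.644 in females and 1.01 in males. The test was the quasi-likelihood F-test of edgeR with Benjamini-Hochberg adjustment over the 15406 genes, a gene being called at an adjusted p under 0.05. Averaged over the sexes, 0 of the 6 tested members were called, where 0.448% of all genes tested were called. Hoxa3 passed the filter through 4 L345 libraries and 0 L6S1 libraries, so the level where it was higher decided that it was tested. Its values are given below but do not count as support. The log2 fold changes of L6S1 over L345 of the other 5 members were below 0, with a median of -0.28 (-0.29 with Hoxa3) beside 0.02 for all genes tested. At an unadjusted p under 0.05 there were 2 of the 6, against 8.39% of all genes. These were Hoxa5 and Hoxa3, of which only Hoxa5 can be read beside that share. DESeq2 and limma voom gave the same 2 at that level and called 0. Without male L6S1 D and E, 4 of the 6, Hoxa3 among them, lay under an unadjusted p of 0.05, against 7.66% of all genes. None was called. The smallest adjusted p in edgeR was then 0.207, for Hoxa7.

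Hoxa10, the most abundant member, had the smallest averaged difference of the tested members. It had 52.7, 47.7, 68.0 and 41.7 CPM in male L6S1 A, D, E and F, against 57.2, 64.3 and 52.5 CPM in male L345 A, B and C. In females it had 52.4, 53.5 and 54.2 CPM at L6S1, against 61.4, 58.1 and 56.0 CPM at L345. Male L6S1 E was the highest of all 13 libraries and male L6S1 F the lowest, and 3 of the 7 L6S1 libraries lay below the lowest L345 library. The fold of L6S1 over L345 was 0.909 with a 95% interval of 0.713 to 1.16 (log2 fold change -0.14, SE 0.17, adjusted p = 0.777 in edgeR).

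Hoxa9, like Hoxa10, had its highest CPM in male L6S1 E. Its CPM was 41.7, 36.0, 57.5 and 41.0 in male L6S1, against 43.1, 52.3 and 45.1 in male L345. Female L6S1 had 31.7, 36.9 and 38.9 CPM, against 45.0, 45.3 and 49.0 CPM in female L345. Of the 7 L6S1 libraries 6 lay below every L345 library, and the remaining one, male L6S1 E, lay above every one. The fold was 0.852 (95% interval 0.667 to 1.09, log2 fold change -0.23, SE 0.17, adjusted p = 0.662 in edgeR).

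Hoxa7, a gene of thoracic identity, varied the most among the 3 abundant members. It had 33.6, 64.6, 41.5 and 35.4 CPM in male L6S1 A, D, E and F, against 41.6, 47.3 and 40.9 CPM in male L345. Female L6S1 libraries had 22.6, 26.0 and 30.7 CPM, against 42.7, 39.0 and 41.5 CPM in female L345. Male L6S1 D was the highest of all libraries, 5 of the 7 L6S1 libraries lay below every L345 library, and E lay among the L345 values. The fold was 0.807 (95% interval 0.613 to 1.06, log2 fold change -0.31, SE 0.19, adjusted p = 0.629 in edgeR). It became -0.49 on the log2 scale without male L6S1 D and E.

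Hoxa5, which patterns the cervical and upper thoracic region and the lung, was the member with the largest difference among those over 1 CPM. Its CPM was 2.71, 3.25, 3.51 and 1.82 in male L6S1, against 3.94, 3.96 and 3.02 in male L345. Female L6S1 had 3.17, 2.65 and 1.97 CPM, against 5.52, 4.66 and 4.07 CPM in female L345. All 7 L6S1 libraries lay below the L345 median of 4.01 CPM, and the 2 levels overlapped between 3.02 and 3.51 CPM. The fold was 0.652 (95% interval 0.470 to 0.903, log2 fold change -0.62, SE 0.22), which did not pass over all genes (adjusted p = 0.459 in edgeR). Its adjusted p ranged from 0.202 to 0.920 over the alternatives.

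Hoxa4 and Hoxa3 were tested at low counts. Hoxa4 had 0.801, 1.51, 1.35 and 0.765 CPM in male L6S1, against 1.19, 0.977 and 1.07 CPM in male L345. In females it had 0.176, 0.962 and 0.384 CPM at L6S1, against 0.477, 0.912 and 0.821 CPM at L345. The levels overlapped, with 2 L6S1 libraries below and 2 above all L345 libraries (log2 fold change -0.28, SE 0.37, adjusted p = 0.801 in edgeR). Hoxa3 had counts of 8, 6, 1 and 5 in male L6S1, against 2, 11 and 13 in male L345. Its counts were 4, 3 and 2 in female L6S1, against 10, 12 and 8 in female L345. All 7 L6S1 libraries lay below the L345 median of 0.521 CPM, and male L345 A, at 0.149 CPM, lay below 5 of them. The fitted log2 fold change of Hoxa3 was -1.31 (SE 0.46, adjusted p = 0.449 in edgeR), on 1 to 13 reads per library.

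**Figure D2:**
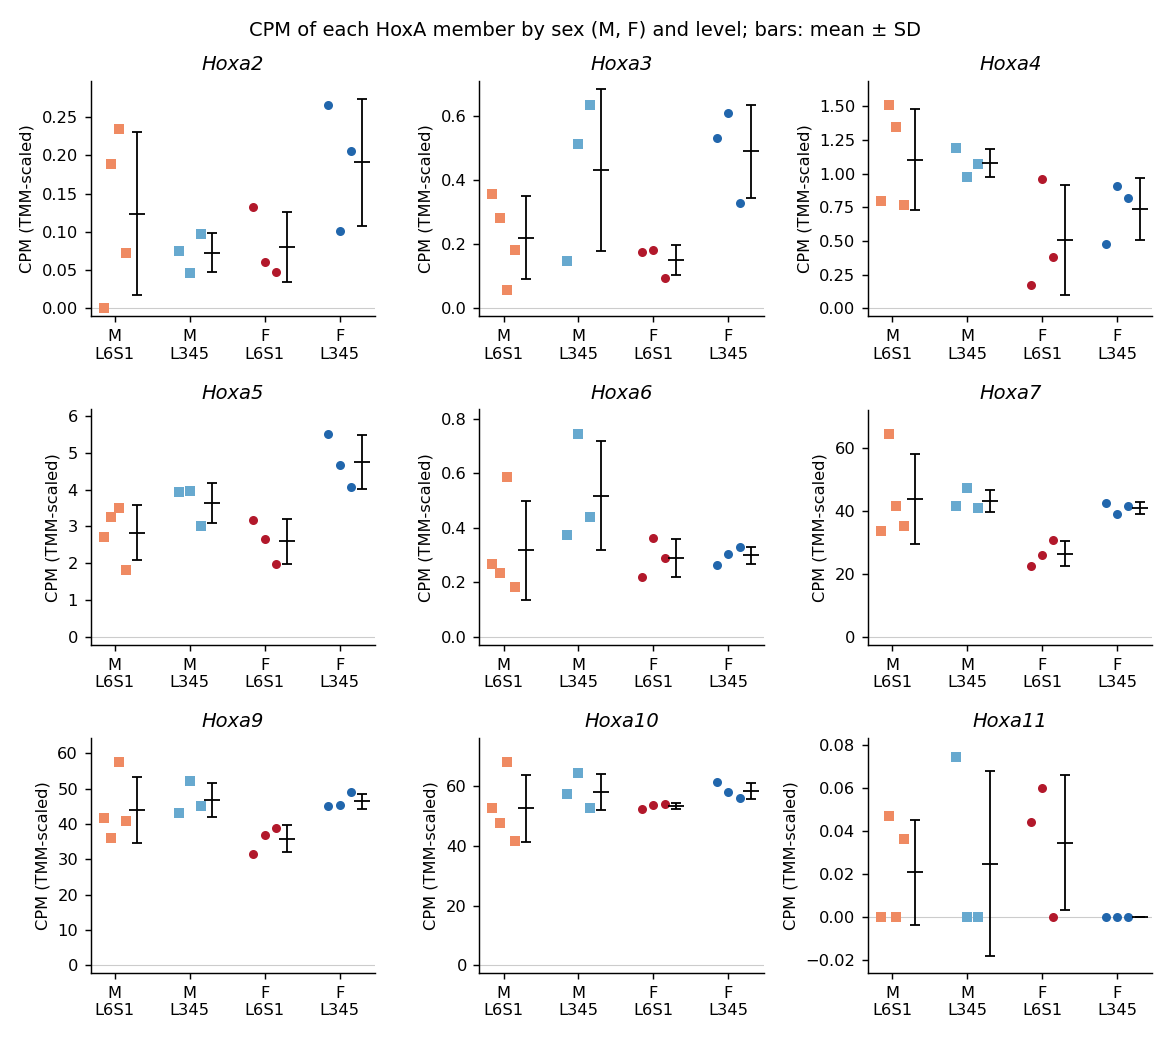
CPM of the HoxA members by group, with 1 point per library and the group mean ± SD, L6S1 left of L345 and males left of females. In females the L6S1 points of Hoxa3, Hoxa5, Hoxa7, Hoxa9 and Hoxa10 lie below all L345 points, and in males, with D and E included, the levels overlap for each of the 9 genes.

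The overlap of the levels was counted within each sex. In females all 3 L6S1 libraries lay below all 3 L345 libraries for 5 of the 9 members, where 3.86% of the genes tested did so. They were Hoxa5, Hoxa7, Hoxa9, Hoxa10 and Hoxa3, of which Hoxa3 passed the filter through L345 libraries alone. In males all L6S1 libraries lay below all L345 libraries for 0 of the 9 members, where 9.49% of the genes tested did so. With the deposited CPM it was 1 member, Hoxa5. The male count rests on D and E: with A and F alone at L6S1 it was 5 of the 9, Hoxa4, Hoxa5, Hoxa6, Hoxa7 and Hoxa9, where 14.6% of the genes tested did so. Over both sexes the levels did not overlap for 0 of the 9 members, where 0.766% of the genes tested were separated in either direction. Without male D and E it was 2 of the 9, Hoxa7 and Hoxa9, where 1.5% of the genes tested were separated. The summed CPM of the 9 genes was 145 ± 22.9 in male L6S1 (SD, n = 4) against 154 ± 14.2 in male L345, and 119 ± 8.06 in female L6S1 against 152 ± 3.60 in female L345 (SD, n = 3 each). The highest female L6S1 sum was 126.5 CPM and the lowest female L345 sum 148.9 CPM.

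Hoxa7 averaged 43.8 ± 14.3 CPM in male L6S1 (SD, n = 4) and 43.3 ± 3.53 CPM in male L345, beside 26.4 ± 4.03 CPM in female L6S1 and 41.1 ± 1.91 CPM in female L345 (SD, n = 3 each). Hoxa5 averaged 2.82 ± 0.746 CPM in male L6S1 (SD, n = 4) and 3.64 ± 0.538 CPM in male L345, beside 2.60 ± 0.606 CPM in female L6S1 and 4.75 ± 0.729 CPM in female L345 (SD, n = 3 each). Female L6S1 had the lowest Hoxa7 mean of the 4 groups. The wider spread of Hoxa7 in male L6S1 came with library D, since without it the mean was 36.8 ± 4.12 CPM (SD, n = 3). For Hoxa10 the means were closer, at 52.5 ± 11.2 CPM in male L6S1 (SD, n = 4), 58.0 ± 5.95 CPM in male L345, 53.4 ± 0.877 CPM in female L6S1 and 58.5 ± 2.72 CPM in female L345 (SD, n = 3 each).

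The effect of level was also tested within each sex. In males 0 of the 6 tested members were called (0.221% of all genes), with log2 fold changes of -0.98 for Hoxa3, 0.03 for Hoxa4, -0.37 for Hoxa5, 0.02 for Hoxa7, -0.09 for Hoxa9 and -0.14 for Hoxa10. In females 0 of the 6 were called (0.0195% of all genes), with -1.65 for Hoxa3, -0.58 for Hoxa4, -0.87 for Hoxa5, -0.64 for Hoxa7, -0.37 for Hoxa9 and -0.13 for Hoxa10. At an unadjusted p under 0.05 there were 0 members in males, against 25.3% of all genes. In females there were 3 against 2.25%, Hoxa5, Hoxa7 and Hoxa3, the last of which passed the filter through L345 libraries alone. The 3 female members were 0 without female L345 A, 1 without female L6S1 A, female L6S1 C or female L345 B, 2 without either other female library, and 4 (against 4.05% of all genes) without male D and E. With the replicate letter as a block, 49 genes in place of 3 were called in females and 0 in place of 34 in males, with 0 members in each. The blocked male values rest on the single pair of A libraries, and there Hoxa3 was 1.23, Hoxa4 -0.57 and Hoxa7 -0.31. At an unadjusted p under 0.05 DESeq2 gave 0 members in males and 2 in females, limma voom 0 and 3, and both called 0. Without male L6S1 D and E the male log2 fold changes were -0.75 for Hoxa3, -0.46 for Hoxa4, -0.69 for Hoxa5, -0.34 for Hoxa7, -0.19 for Hoxa9 and -0.30 for Hoxa10, all below 0, and the male share of genes at an unadjusted p under 0.05 was 7.72%, with 0 members.

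The difference of the level effect between the sexes was tested as an interaction. It called 0 members and 0.0% of all genes, and at an unadjusted p under 0.05 it had 0 members against 11.7% of genes, with 0 members also in DESeq2 and limma voom. The largest differences, males minus females, were 0.68 for Hoxa3, 0.65 for Hoxa7 and 0.61 for Hoxa4 on the log2 scale, and that of Hoxa7 had an SE of 0.38 and an adjusted p of 0.428 in edgeR. Without male D and E these were 0.91, 0.30 and 0.12, again with 0 members under an unadjusted p of 0.05, against 3.39% of genes. Over the 6 tested members the median difference was then 0.18, against 0.55 with D and E. Males against females, averaged over the levels, likewise called 0 members, where 0.0779% of all genes were called (12 genes). Hoxa4 (log2 fold change 0.84, males over females) and Hoxa7 (0.40) were under an unadjusted p of 0.05, as were 6.10% of all genes, with an adjusted p of 0.665 each in edgeR. DESeq2 had 2 members at that level and limma voom 1, and both called 0. Without male L6S1 D and E, Hoxa4 was 0.59 and Hoxa7 0.22, and 0 members were under an unadjusted p of 0.05, against 3.88% of all genes. With 1 library left out it was 0 to 2 members.

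**Figure D3:**
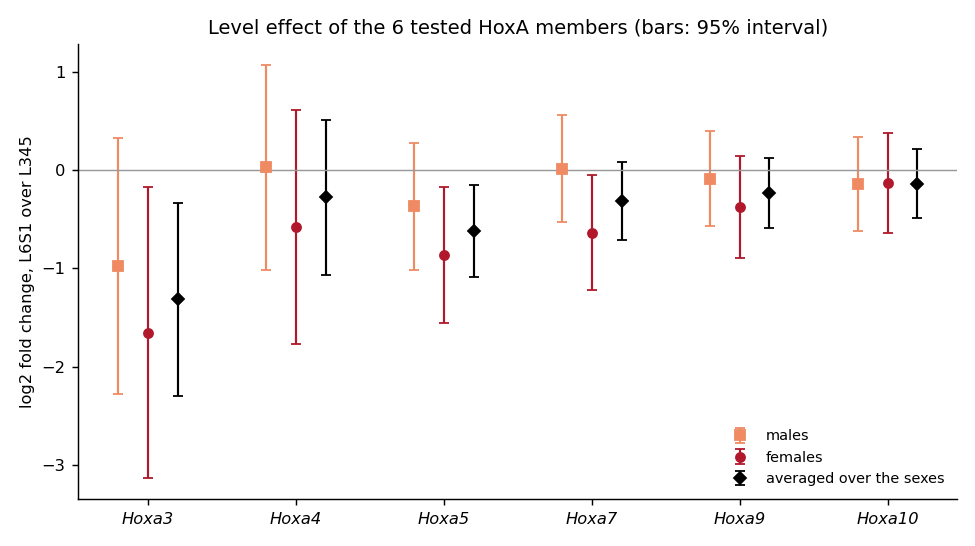
Log2 fold change of L6S1 over L345 for the 6 tested HoxA members, with 95% intervals from edgeR, in males, in females and averaged over the sexes. Every averaged value is below 0, Hoxa3 having passed the filter through L345 libraries alone, the intervals of Hoxa3 and Hoxa5 end below 0 before adjustment, and no member is called.

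The 3 members under the filter stayed near the floor at both levels. Hoxa2 had 0, 4, 4 and 2 counts in male L6S1 and 1, 1 and 2 in male L345, beside 3, 1 and 1 in female L6S1 and 5, 2 and 5 in female L345. Hoxa6 had 0.267, 0.236, 0.585 and 0.182 CPM in male L6S1 against 0.372, 0.745 and 0.438 CPM in male L345. In females Hoxa6 had 0.220, 0.361 and 0.288 CPM at L6S1 against 0.265, 0.304 and 0.329 CPM at L345. Both genes overlapped between levels, and an exact two-sided permutation test of the deposited CPM within each sex gave p = 0.383 for Hoxa2 and p = 0.0929 for Hoxa6.

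Hoxa11, next to the abundant Hoxa10, was at 0 in 8 of 13 libraries. It had 0, 1, 0 and 1 counts in male L6S1 and 1, 0 and 0 in male L345, beside 1, 1 and 0 in female L6S1 and 0, 0 and 0 in female L345, 5 reads in all (exact permutation p = 0.389). The 0 in female L345 allows up to 0.0477 CPM over that group, by a floor of 3 counts. Hoxa11 was thus not detectably different between levels at this depth.

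Some paralogues of other clusters shifted with level against the HoxA members and others did not, and here the comparison was made within each library. For each HoxA member and each gene of its group in another cluster, where both reached 0.5 CPM in some group, the log2 ratio of their CPM (pseudocount 0.5) was compared between levels by an exact two-sided permutation test within sex. Of the 700 arrangements the smallest possible p is 0.00143. Of the 12 pairs 6 passed after Benjamini-Hochberg adjustment over the 12, 3 with a higher and 3 with a lower ratio at L6S1, and 7 passed without male L6S1 D and E. The higher ratios were Hoxa7 over Hoxb7 and those of Hoxa6 over Hoxb6 and Hoxc6. Hoxa6 did not pass the low-count filter and reached 0.5 CPM in male L345 alone, so its pairs are not read as support. Ratios shifted away from HoxA in group 10 and against Hoxd9. No HoxA member was called on its own, so the test of each paralogue is given beside its ratio.

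Hoxa10 and its paralogues gave the largest shift. The log2 ratio of Hoxa10 over Hoxd10 was -0.77, -0.17, 0.18 and -0.45 in male L6S1, against 2.06, 4.67 and 2.35 in male L345. In females it was -0.83, -0.65 and -0.45 at L6S1, against 2.05, 3.03 and 2.14 at L345. All 7 L6S1 libraries lay below all L345 libraries, and the averaged difference was -3.19 (exact permutation test, adjusted p = 0.00571). Hoxd10 averaged 73.3 ± 16.5 CPM at L6S1 (SD, n = 7) and 9.80 ± 4.70 CPM at L345 (SD, n = 6), and edgeR gave it a log2 fold change of 2.94 (adjusted p = 5.50e-04). At L345 the HoxA gene was therefore the more abundant of the pair in CPM, and at L6S1 Hoxd10 was the higher in 6 of 7 libraries.

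Hoxc10 shifted in the same direction by less. The log2 ratio of Hoxa10 over Hoxc10 was 0.756 ± 0.333 at L6S1 (SD, n = 7) and 1.85 ± 0.258 at L345 (SD, n = 6), with all 7 L6S1 libraries below all L345 libraries (difference -1.08, exact permutation test, adjusted p = 0.00571). Hoxc10 averaged 31.1 ± 4.28 CPM at L6S1 and 15.9 ± 2.81 CPM at L345 (edgeR log2 fold change 0.94, adjusted p = 0.0234).

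In group 9 the 3 partners of Hoxa9 differed. Hoxa9 over Hoxd9 had log2 ratios of 2.07, 1.53, 1.17 and 1.35 in male L6S1 against 3.39, 3.74 and 3.51 in male L345, and of 1.81, 1.72 and 1.61 in female L6S1 against 3.76, 3.65 and 3.41 in female L345. The 2 levels were separated by more than 1 log2 unit, and the difference was -1.96 (exact permutation test, adjusted p = 0.00571). Hoxd9 averaged 13.5 ± 5.66 CPM at L6S1 and 3.46 ± 0.439 CPM at L345 (edgeR adjusted p = 9.87e-04). The ratios to Hoxb9 and Hoxc9 differed by 0.21 and 0.29 and did not pass (exact permutation tests, adjusted p = 0.493 and 0.353). Neither paralogue was called itself, with edgeR log2 fold changes of -0.68 and -0.51 (adjusted p = 0.637 and 0.593).

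**Figure D4:**
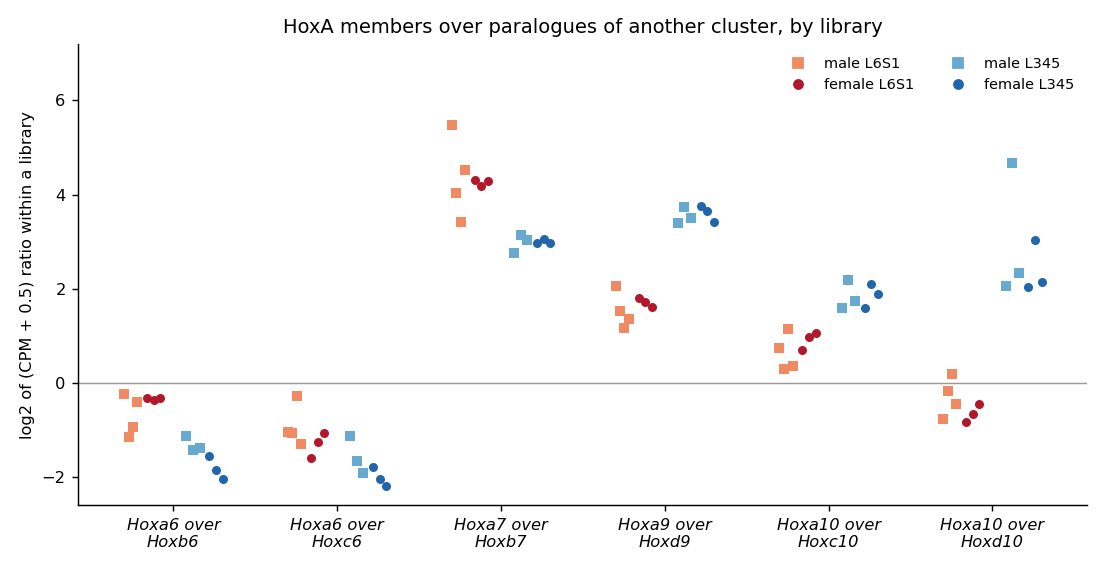
Log2 ratio of the CPM of a HoxA member over its paralogue in each library, L6S1 left of L345, for the 6 pairs that passed. For Hoxa9 over Hoxd9, Hoxa10 over Hoxc10 and Hoxa10 over Hoxd10 all 7 L6S1 libraries are below all L345 libraries, and for Hoxa7 over Hoxb7 all 7 are above.

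In group 7 the ratio ran the other way. Hoxa7 over Hoxb7 had log2 ratios of 5.47, 4.05, 3.41 and 4.53 in male L6S1 against 2.76, 3.14 and 3.04 in male L345. In females they were 4.32, 4.18 and 4.28 at L6S1 against 2.96, 3.07 and 2.96 at L345. All 7 L6S1 libraries lay above all L345 libraries (difference 1.32, exact permutation test, adjusted p = 0.00857). Hoxb7 averaged 1.56 ± 1.32 CPM at L6S1 and 4.89 ± 0.515 CPM at L345, and its own test in edgeR gave a log2 fold change of -1.84 with an adjusted p of 0.0720, which does not pass. Hoxa6 over Hoxb6 differed by 1.06, with 6 of 7 L6S1 libraries above all L345 libraries, and Hoxa6 over Hoxc6 by 0.67, with 4 of 7 (exact permutation tests, adjusted p = 0.0114 each). Hoxa6 entered these 2 pairs through male L345 alone, where it averaged 0.518 CPM, against 0.290 to 0.317 CPM in the other groups. Hoxb6 fell at L6S1 (log2 fold change -1.76, adjusted p = 0.0381 in edgeR), while Hoxc6 had -1.13 with an adjusted p of 0.0830. With a pseudocount of 0.1 the pair of Hoxa6 and Hoxc6 no longer passed (exact permutation test, adjusted p = 0.0571). Over the alternatives the difference for Hoxa6 over Hoxb6 ran from 0.59 to 1.34. The 2 pairs of Hoxa6 are not read as a result for group 6.

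In groups 4 and 5 no pair passed with all libraries and a pseudocount of 0.5. Hoxa5 over Hoxb5 differed by 0.50 (exact permutation test, p = 0.0371, adjusted p = 0.0637). That pair passed without female L6S1 C (0.65), without male L6S1 D (0.54) and without male L345 A (0.58). It passed also with a pseudocount of 2 (0.59). Hoxb5 itself fell at L6S1 to 18.5 ± 6.21 CPM, against 36.5 ± 4.45 CPM at L345 (edgeR log2 fold change -1.05, adjusted p = 0.0283). The other differences were 0.51 for Hoxa4 over Hoxb4, 0.18 for Hoxa4 over Hoxc4 and -0.34 for Hoxa5 over Hoxc5, with adjusted p = 0.131, 0.460 and 0.349 in exact permutation tests.

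The group 11 genes of the other clusters were measured at L6S1 in libraries where Hoxa11 stayed at 0 or 1 read. Hoxc11 had 2.14 to 2.87 CPM in male L6S1 and 2.25 to 4.39 CPM in female L6S1, and at most 0.205 CPM in any L345 library (edgeR log2 fold change 5.57, adjusted p = 2.23e-05). The low-count filter stood at 0.474 CPM, so Hoxc11 passed it through L6S1 libraries alone. The level where it was higher decided that it was tested, and its test does not count as support. Hoxd11 averaged 22.8 ± 4.14 CPM at L6S1 (SD, n = 7) and 2.86 ± 1.55 CPM at L345 (SD, n = 6, adjusted p = 5.50e-04 in edgeR). Hoxa11 did not exceed 0.0744 CPM in any library, so it entered no ratio. Hoxa11os, the antisense transcript that overlaps Hoxa11, had 12 reads in all, 0, 1, 4 and 5 in male L6S1 and 1, 0 and 1 in female L6S1, against 0 in all 6 L345 libraries. Those 0 counts allow up to 0.0253 CPM over the L345 libraries.

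**Figure D5:**
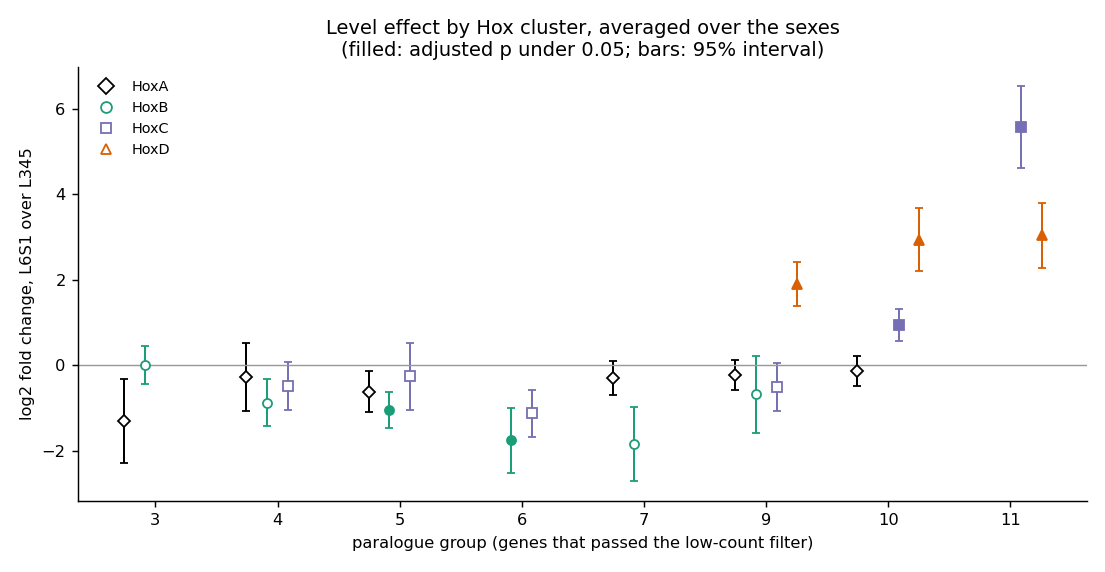
Log2 fold change of L6S1 over L345 averaged over the sexes, from edgeR with 95% intervals, for tested Hox genes by paralogue group and cluster, filled where the adjusted p is under 0.05. HoxA members lie between -1.31 and -0.14, while HoxB genes of groups 5 to 7 lie at -1.05 to -1.84 and HoxC and HoxD genes of groups 10 and 11 at 0.94 to 5.57. Hoxa3 (-1.31) passed the filter through L345 libraries alone, and Hoxc11 (5.57) through L6S1 libraries alone. Hoxc4, Hoxc5, Hoxb9 and Hoxc9, at -0.27 to -0.68, lie within the HoxA range and are not called.

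Within the HoxA cluster the balance between members changed less. The 15 pairs of tested members, a comparison chosen after the values had been seen, gave 0 pairs past the threshold in exact permutation tests adjusted over the 15. The smallest p was 0.0143, for Hoxa5 over Hoxa10 (difference in log2 ratio -0.41, 5 of 7 L6S1 libraries below all L345 libraries, adjusted p = 0.214, exact permutation test). Without male L6S1 D and E, 2 pairs passed, Hoxa5 over Hoxa10 at -0.47 and Hoxa7 over Hoxa9 at -0.21 (exact permutation tests, adjusted p = 0.0375 each). The same 2 passed without D alone. The ratio of Hoxa7 to Hoxa10 had an SD of 0.546 log2 units at L6S1 (0.333 without male L6S1 D) and 0.0747 at L345. Hoxa7 made up 20.4% to 42.0% of the members' summed CPM at L6S1 and 26.2% to 28.5% at L345, and Hoxa10 31.0% to 47.4% at L6S1 and 36.5% to 39.3% at L345.

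Of the other transcripts of the cluster, the noncoding RNAs Hoxaas2, Hoxaas3 and Hotairm1 were tested and 0 were called. None was at an unadjusted p under 0.05 in edgeR, DESeq2 or limma voom. The predicted antisense gene Gm15050 was not called either (log2 fold change -0.37, adjusted p = 0.783 in edgeR). The antisense transcript Hoxaas2 averaged 2.05 ± 0.919 CPM at L6S1 (SD, n = 7) and 3.01 ± 1.24 CPM at L345 (SD, n = 6), and Hoxaas3 0.726 ± 0.563 CPM at L6S1 and 0.912 ± 0.282 CPM at L345. The noncoding RNA Hotairm1 averaged 0.896 ± 0.519 CPM at L6S1 and 0.805 ± 0.345 CPM at L345. At the tail end, Hoxa13 had 2 reads, both in female L6S1 A, and Evx1 and Hottip were listed with 0. Halr1, at the other end, had 1 read, and Mir196b, which lies wholly within an exon of Hoxa9, was listed with 0. The 8 genes flanking the cluster on either side, such as Skap2 and Hibadh, had 0 calls and 0 genes at an unadjusted p under 0.05 by the same 3 tools, with a median log2 fold change of -0.12 in edgeR.

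Genes known to act with or upstream of Hox genes were read from lists of 86 genes, of which 78 were tested. None was called by edgeR between levels, 10 lay under an unadjusted p of 0.05 (12.8%, beside 8.39% of all genes), limma voom called 0 and DESeq2 called 1, Rxrg, of 85 (1.18%, beside 0.706% of all genes). Of the 10 TALE cofactors, which bind DNA with Hox proteins, Meis3 had a log2 fold change of 0.74 (adjusted p = 0.529) and Meis1 of -0.64 (adjusted p = 0.593). Retinoic acid signalling is the pathway that switches on the head end of Hox clusters in the embryo. Of its 15 tested genes, the receptor Rxrg had 0.87 (adjusted p = 0.0723 in edgeR) and the binding protein Crabp1 1.22 (adjusted p = 0.409). Of 7 tested regulators of trunk and tail patterning, the ligand Gdf11 had -0.50 (adjusted p = 0.589) and the receptor Fgfr1 -0.29 (adjusted p = 0.637).

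The chromatin regulators that keep Hox clusters silent or active were measured as well. Of 27 tested polycomb genes, which maintain silencing, the core subunit Suz12 had a log2 fold change of -0.57 (adjusted p = 0.555) and the accessory subunit Phf19 1.47 (adjusted p = 0.583). Of 19 trithorax, demethylase and CTCF-cohesin genes, the cohesin subunit Rad21 had -0.66 (adjusted p = 0.344) and the methyltransferase Ash1l -0.53 (adjusted p = 0.571). Medians of the 5 lists were -0.04 for the cofactors, 0.17 for the retinoid genes, -0.23 for the axial regulators, 0.06 for polycomb and -0.27 for trithorax, all from edgeR and beside 0.02 for all genes tested.

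Across the 13 libraries the genes with the most similar profile were named for each tested member, by Pearson's r of log2 CPM among 11217 tested genes outside the Hox clusters, as a description. Hoxa7 was most like Cited1 (r = 0.933) and Rab11b (r = 0.919), and Hoxa4 most like Isl2 (r = 0.905) and Zfp316 (r = 0.839). Hoxa10 was most like Aasdhppt (r = 0.887) and Setd5 (r = 0.864), and Hoxa9 most like Ostf1 (r = 0.850) and Wdsub1 (r = 0.827). Hoxa5 was most like Plekha3 (r = 0.848) and Sntb2 (r = 0.840), and Hoxa3 most like Gabpb2 (r = 0.844) and Zfp608 (r = 0.829). Between members, r was 0.698 for Hoxa4 and Hoxa7, 0.671 for Hoxa5 and Hoxa10, 0.661 for Hoxa9 and Hoxa10 and 0.142 for Hoxa7 and Hoxa10. These points share depth, scaling and the libraries male L6S1 D and E.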

How the data were processed

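Bulk RNA of sorted Ret-EGFP cells was measured in 13 libraries, with 10 ng of RNA as the input of SMARTer Ultra Low Input kits, per the labels. The deposited counts are whole numbers per gene with no normalization. The CPM that the authors deposited is that count scaled by the library's own total alone, and the deposited RPKM is this CPM divided by the listed gene length in kilobases. Per the submitters' processing notes, featureCounts 1.4.5, Subread, Salmon and STAR 2.0.4b are named beside GRCm38.p2 and mm10, with no role given for any. The handling of reads that map to several genes and of strand is not given in the sources used here. Each Hox member was matched by Ensembl identifier to GENCODE M21 symbols, which 40254 of the 41388 genes have.

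Counts were filtered with filterByExpr, scaled with TMM and fitted in edgeR 4.0.16 (R 4.3.3; robust quasi-likelihood, 1 mean per group over the 13 libraries). Dividing the size of a log2 fold change by the root of its F statistic gave its SE. CPM and RPKM printed are the count over the total times the TMM factor, so they exceed the deposited values in male L6S1 D and E. P-values measure the spread between pools. Ratios between genes used exact permutation within sex (scipy 1.17.1), on log2 of CPM plus 0.5. Of the scripts, the edgeR fit of the averaged level effect was tested on simulated data. DESeq2 1.42.0, limma 3.58.1 and other settings served as alternatives. A block on the replicate letter served as an alternative. Deviations of libraries with the same letter correlated between levels (r = 0.520, 0.203 and 0.488 for female A, B and C, and 0.101 for male A), but r reached 0.252 in females and 0.207 in males between different letters. In the blocked fits of the common level effect, the male effect and the interaction, males contribute 1 pair. The named genes were all members, the other transcripts of the cluster, the paralogues tested, the 2 genes of smallest p in each regulator list and the 2 most similar genes per member, except 1 that is not reported here. Members and lists were chosen with earlier results of these data known.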

Additional observations from a re-analysis of the deposited data

How the results depend on the processing

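The count of HoxA members called stayed at 0 in each comparison under every alternative run, and 290 of 314 single values under other settings, and 713 of 741 with 1 library left out, kept their direction and side of the threshold. The counts over all genes moved more. Averaged over the sexes 69 genes were called, but 144 with no filter, 190 by DESeq2, 37 without male L6S1 E and F, and 28 to 129 with 1 library left out. In males it was 34, but 264 with no filter, 904 by DESeq2, 16 by limma voom, 19 without D and E, 9 without E and F, 0 with the replicate block, and 4 to 3135 with 1 library left out, the highest without male L6S1 A. In females it was 3, but 34 with no filter, 45 by DESeq2, 11 by limma voom, 23 without male D and E, 12 without male E and F, 49 with the replicate block and 0 to 11 with 1 library left out. The interaction called 1 gene with no filter. Males against females called 12, but 19 with no filter, 25 by DESeq2 and 7 without D and E; the block planned there was not run, since a letter pairs libraries within a sex only. The replicate block gave 90 genes for 1 level effect common to both sexes, which is not the mean of the female and male effects. That fit rests on 4 pairs, 3 of them female. It changed no call of a member (Hoxa7 -0.56, adjusted p = 0.184 in edgeR). In males, where the block rests on 1 pair, it gave 1.23 for Hoxa3, -0.57 for Hoxa4 and -0.31 for Hoxa7, and in the interaction 0.012 for Hoxa10. In males Hoxa4 became -0.12 without normalization between libraries, -0.050 by limma voom and -0.46 without D and E, and Hoxa7 -0.12, -0.033 and -0.34; with 1 library left out they ran from -0.20 to 0.18 and from -0.27 to 0.12. Hoxa10 ran from -0.17 to 0.084 in the interaction and from -0.098 to 0.031 between the sexes. The paralogue pairs past the threshold were 6 to 7 with 1 library left out. Hoxa9 over Hoxb9 was -0.0023 with a pseudocount of 2 and -0.023 to 0.41 with 1 library left out, and Hoxa4 over Hoxc4 was -0.0099 without D and E. Hoxa5 over Hoxb5 passed with a pseudocount of 2 (0.59, exact permutation test, adjusted p = 0.0196), and Hoxa9 over Hoxc9 without D and E (0.56, exact permutation test, adjusted p = 0.04). Among pairs of HoxA members, added after the data were seen, 2 passed without D and E and 0 to 2 with 1 library left out. With a pseudocount of 0.1, Hoxa3 over Hoxa5 was -0.33 and Hoxa4 over Hoxa9 -0.089. With a pseudocount of 2, Hoxa3 over Hoxa7 was 0.15, Hoxa3 over Hoxa9 0.062 and Hoxa4 over Hoxa10 0.076. Without D and E, Hoxa3 over Hoxa7 was 0.058 and Hoxa4 over Hoxa9 -0.053. With 1 library left out, Hoxa4 over Hoxa10 ran from -0.19 to 0.084, Hoxa4 over Hoxa7 from -0.0020 to 0.24, Hoxa4 over Hoxa9 from -0.082 to 0.14 and Hoxa3 over Hoxa5 from -0.066 to 0.22. The cause of these changes was not tested. Depth limits Hoxa2, Hoxa3, Hoxa6 and Hoxa11, whose counts reach 16 at most in a library.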
